A study of Mus musculus with 5 samples.

Results

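The genes of DNA replication and S phase were followed in a time course of osteoclast formation from mouse bone marrow macrophages. The set holds 45 named genes, from the factors that license replication origins to the E2F regulators and cyclins that start S phase. It was taken by gene symbol from array rows that name exactly 1 gene, and where a gene had several rows the brightest one on average was taken. Of the 45 genes, 43 had such a row, out of 22180 genes in all. Rfc4 and Ccne2 stand only in rows shared with Eif4a2 and Ints8, and their values are not used here. All 43 lay above a level filter set at the median of the row means, 4.89 on the log2 scale, which 12049 genes passed and which defines "measured" below.

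Every array held wild-type cells from mice of 10 weeks, cultured on plastic. The macrophages were then kept for 0, 1, 2, 3 or 5 days in M-CSF at 20 ng/ml, which sustains macrophage precursors and their division, together with RANKL at 30 ng/ml, which turns them into osteoclasts. Day 0 is thus the macrophage culture at the start, days 1, 2 and 3 are cells on the way, and day 5 is the culture labelled mature osteoclasts. Each day has 1 Affymetrix array, 5 in all, so a day and its array cannot be told apart. The 5 arrays include none of cells kept for the same days without RANKL, so days in culture and differentiation cannot be told apart. As a check of the labels, all 11 osteoclast markers on the list rose by at least 2-fold between the first array and the last. In bulk RNA a smaller share of cells in S phase and less message per such cell cannot be told apart.

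In each cell cycle the origin recognition complex, Cdc6 and Cdt1 load the MCM ring onto DNA, and Cdc45 and the GINS complex then turn that ring into an active helicase. Polymerases held by the PCNA clamp copy both strands, ligase and flap nuclease join the pieces of the lagging strand, and histone chaperones and maintenance factors rebuild chromatin behind the fork. Many of these genes share E2F control: RB family proteins hold E2F factors silent until cyclin-dependent kinases release them, and the atypical members E2F7 and E2F8 later repress the same kind of target. Osteoclasts form from dividing precursors that leave the cell cycle before or as they fuse.

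Because the genes moved together, their promoters were searched for letters of the E2F site. The first form searched was TTCCCGC, another was TTCGCGC, a further one was TTGCCGC and the last was TTGGCGC, each on either strand, with overlapping matches counted apart. RefSeq promoters of build GRCm38.p6, from 250 bases before to 50 after the gene's first listed start, were at hand for 38 of the 45 genes. The windows below hold a match before the start. They are examples from genes at least 2-fold lower at day 3 than at day 2 (Cdc6, Mcm5, Mcm6, Mcm7, Uhrf1, Hells, Rrm1, E2f7 and E2f8). A further 1 is from a gene with a small difference (Chaf1b), and other genes with such a match are not shown. They run 5' to 3' along the gene's strand, with the E2F letters in capitals.
Cdc6, chr11:98907993-98908039, plus strand: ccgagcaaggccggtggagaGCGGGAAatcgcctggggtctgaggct
Mcm5, chr8:75109340-75109386, plus strand: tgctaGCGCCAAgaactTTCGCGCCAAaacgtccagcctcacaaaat
Mcm6, chr1:128359722-128359768, minus strand: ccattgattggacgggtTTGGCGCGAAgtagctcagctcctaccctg
Mcm7, chr5:138172022-138172068, minus strand: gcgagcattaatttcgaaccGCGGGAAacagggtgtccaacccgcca
Uhrf1, chr17:56303269-56303315, plus strand: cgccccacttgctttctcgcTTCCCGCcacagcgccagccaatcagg
Hells, chr19:38930927-38930973, plus strand: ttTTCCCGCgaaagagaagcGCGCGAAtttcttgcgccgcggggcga
Rrm1, chr7:102441608-102441654, plus strand: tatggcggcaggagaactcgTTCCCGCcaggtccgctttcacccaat
E2f7, chr10:110745327-110745373, plus strand: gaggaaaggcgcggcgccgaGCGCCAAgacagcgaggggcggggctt
E2f8, chr7:48881681-48881727, minus strand: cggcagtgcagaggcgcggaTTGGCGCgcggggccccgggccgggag
Chaf1b, chr16:93883654-93883700, plus strand: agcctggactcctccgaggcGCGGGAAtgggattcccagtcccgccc

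The whole stretch of 250 bases before the start is shown for Mcm5, whose 3 matches all lie there, again with the E2F letters in capitals.
Mcm5, chr8:75109259-75109508, plus strand: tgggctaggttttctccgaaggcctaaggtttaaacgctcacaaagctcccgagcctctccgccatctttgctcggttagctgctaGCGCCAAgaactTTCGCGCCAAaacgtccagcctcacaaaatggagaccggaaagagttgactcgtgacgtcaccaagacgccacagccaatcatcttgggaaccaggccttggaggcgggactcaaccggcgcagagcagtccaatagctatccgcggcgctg

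E2F letters stood in 23 of the 38 promoters, or 60.5%. The share was 9.69% over all 27025 genes with a promoter, 12.2% over protein-coding genes and 16.8% over measured genes. With every listed start of a gene counted, it was 25 of 38 against 10.9% of all genes. At least 2 matches stood in 11 of the 38, against 1.22% of all genes. All 5 promoters of the chromatin and checkpoint genes held a match, and so did 4 of 5 in the MCM ring, where Mcm2 was the exception and Mcm4 had no promoter in the table. The other letters searched were the CCAAT box, CCAAT, and the CHR element, TTTGAA, again on either strand. The last E2F form, read on the other strand, ends in CCAA and can overlap a CCAAT box. CCAAT stood in 22 of 38 promoters (57.9%), against 37.9% of all genes and 38.7% of measured genes. The CHR letters stood in 4 of 38 (10.5%), against 18.1% of all genes and 1144 of 9534 measured genes with a promoter, a share close to that of the replication genes. In promoters of mitosis genes the order was different, with E2F letters in 6 of 35 and CHR letters in 27 of 35. CCAAT also stood in 27 of those 35 (77.1%), a larger share than in the replication genes. A match describes letters, not binding. The median GC content was 59.8% for the replication genes, 59.0% for mitosis genes, 60.7% for measured genes and 52.7% for all genes.

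**Figure D1:**
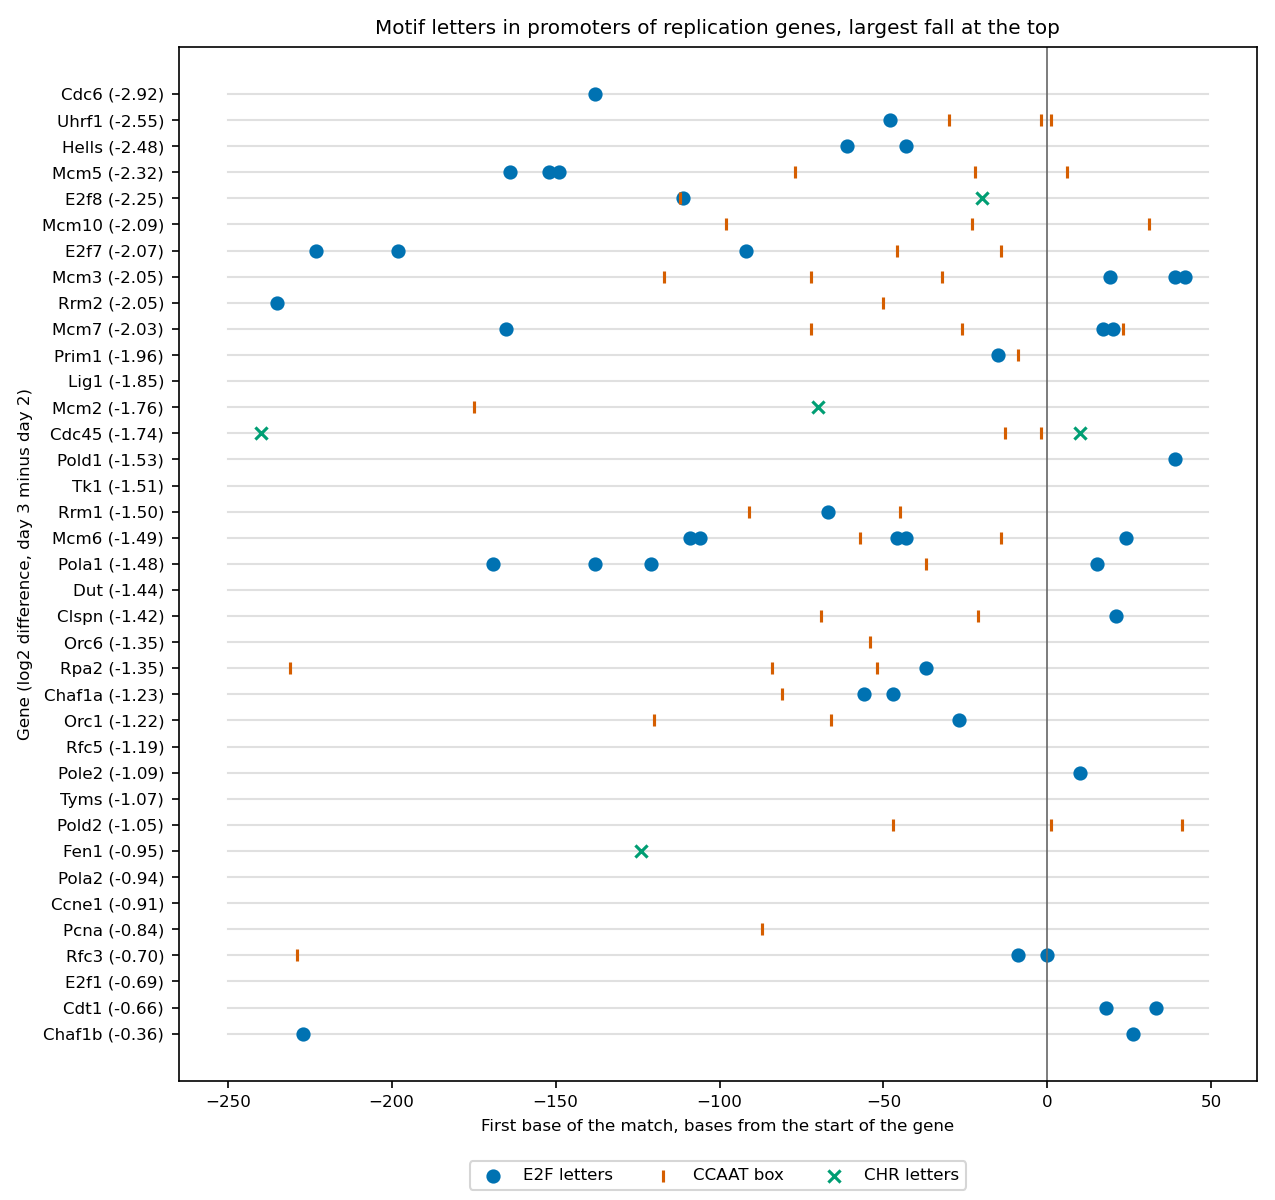
Positions of E2F, CCAAT and CHR letters in the promoters of 37 replication genes that have both a promoter and a measured row. The x axis gives the first base of each match in bases from the start of the gene, and genes are ordered by their log2 difference between days 2 and 3, printed beside the name, from Cdc6 at -2.92 to Chaf1b at -0.36. E2F letters appear along the whole order, also in Cdt1 and Chaf1b at the bottom.

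Across the 5 arrays nearly all replication genes kept a high level through day 2, were much lower at day 3, and stayed low at day 5. At day 5 against day 0, 33 of the 43 fell by at least 2-fold, 0 rose by as much and 10 did neither, and the median log2 difference was -1.56. Of all 12049 measured genes, 6.56% were at least 2-fold lower and 6.78% higher in that comparison, and their median difference was 0.00. With arrays centred on the level of reference genes those calls were 1957 lower and 416 higher in place of 791 and 817, and the median of the replication genes was -2.05. Centred on the median change of those genes instead, the median of the replication genes was -1.60. Most of the fall lay in 1 step. From day 2 to day 3, 33 of 43 genes were at least 2-fold lower (median -1.49) where 3.91% of all measured genes were, again around a median of 0.00, and 0 were higher where 2.08% were. With the rows of a gene averaged 31 of 43 were lower in that step, as Pole and Dut, each with a dim and flat other row, were then at -0.93 and -0.72. From day 0 to day 1 and from day 1 to day 2, 0 of 43 passed 2-fold in either direction. Of all genes 4.17% were lower and 2.91% higher in the former step, and 0.556% lower and 2.46% higher in the latter. From day 3 to day 5 the count was 0 of 43 either way as well, against 0.116% lower and 0.158% higher among all genes. With 1 array a day there is no spread between cultures, so no test was possible and a gene was counted when 2 arrays differed by 2-fold, a difference of 1 on the log2 scale. As a partial measure of technical noise, the day 3 minus day 2 difference disagreed between 2 rows of one gene with an SD of 0.42 over 442 genes. Both rows are read on the same arrays, so noise shared by a culture or an array is not in it. The day 5 minus day 0 difference disagreed with an SD of 0.60.

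**Figure D2:**
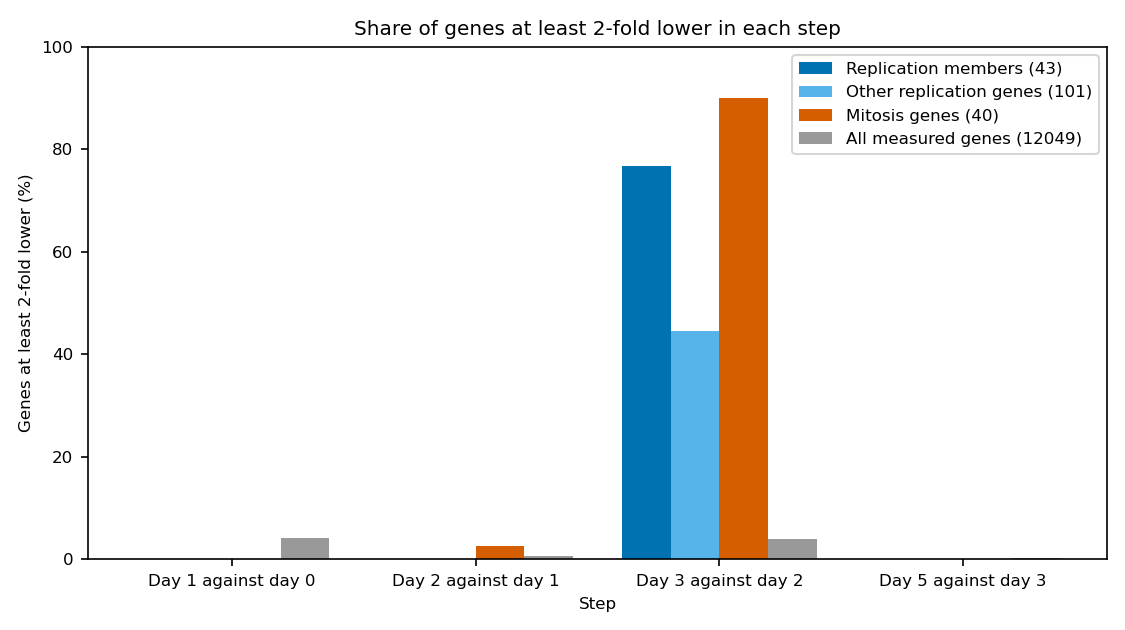
Percentage of genes at least 2-fold lower in each step between successive arrays, for the 43 replication genes, 101 further replication genes, 40 mitosis genes and all 12049 measured genes. Bars start at 0. Only the step from day 2 to day 3 carries tall bars, 76.7% for the replication genes against 3.91% for all genes.

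The split between early and late arrays was clean gene by gene. In 42 of 43 genes the lowest of the values at days 0, 1 and 2 lay above the higher of days 3 and 5, an arrangement that 22.8% of measured genes had. The exception was Rfc2. The largest drop between successive arrays was that from day 2 to day 3 in 42 of 43 genes, again all but Rfc2. Among the 33 genes at least 2-fold lower at day 5, it was so in all 33. Among the 758 other measured genes at least 2-fold lower at day 5, the largest drop was that step in 45.4% and the first day in 44.7%. Over the 33, the step from day 2 to day 3 made up a median of 96.2% of the whole difference between day 0 and day 5 (quartiles 86.4% and 107%). The step from day 1 to day 2 made up a median of 20.2%. The medians of the first day and of day 3 to day 5 went the other way, at -11.6% and -9.53%.

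**Figure D3:**
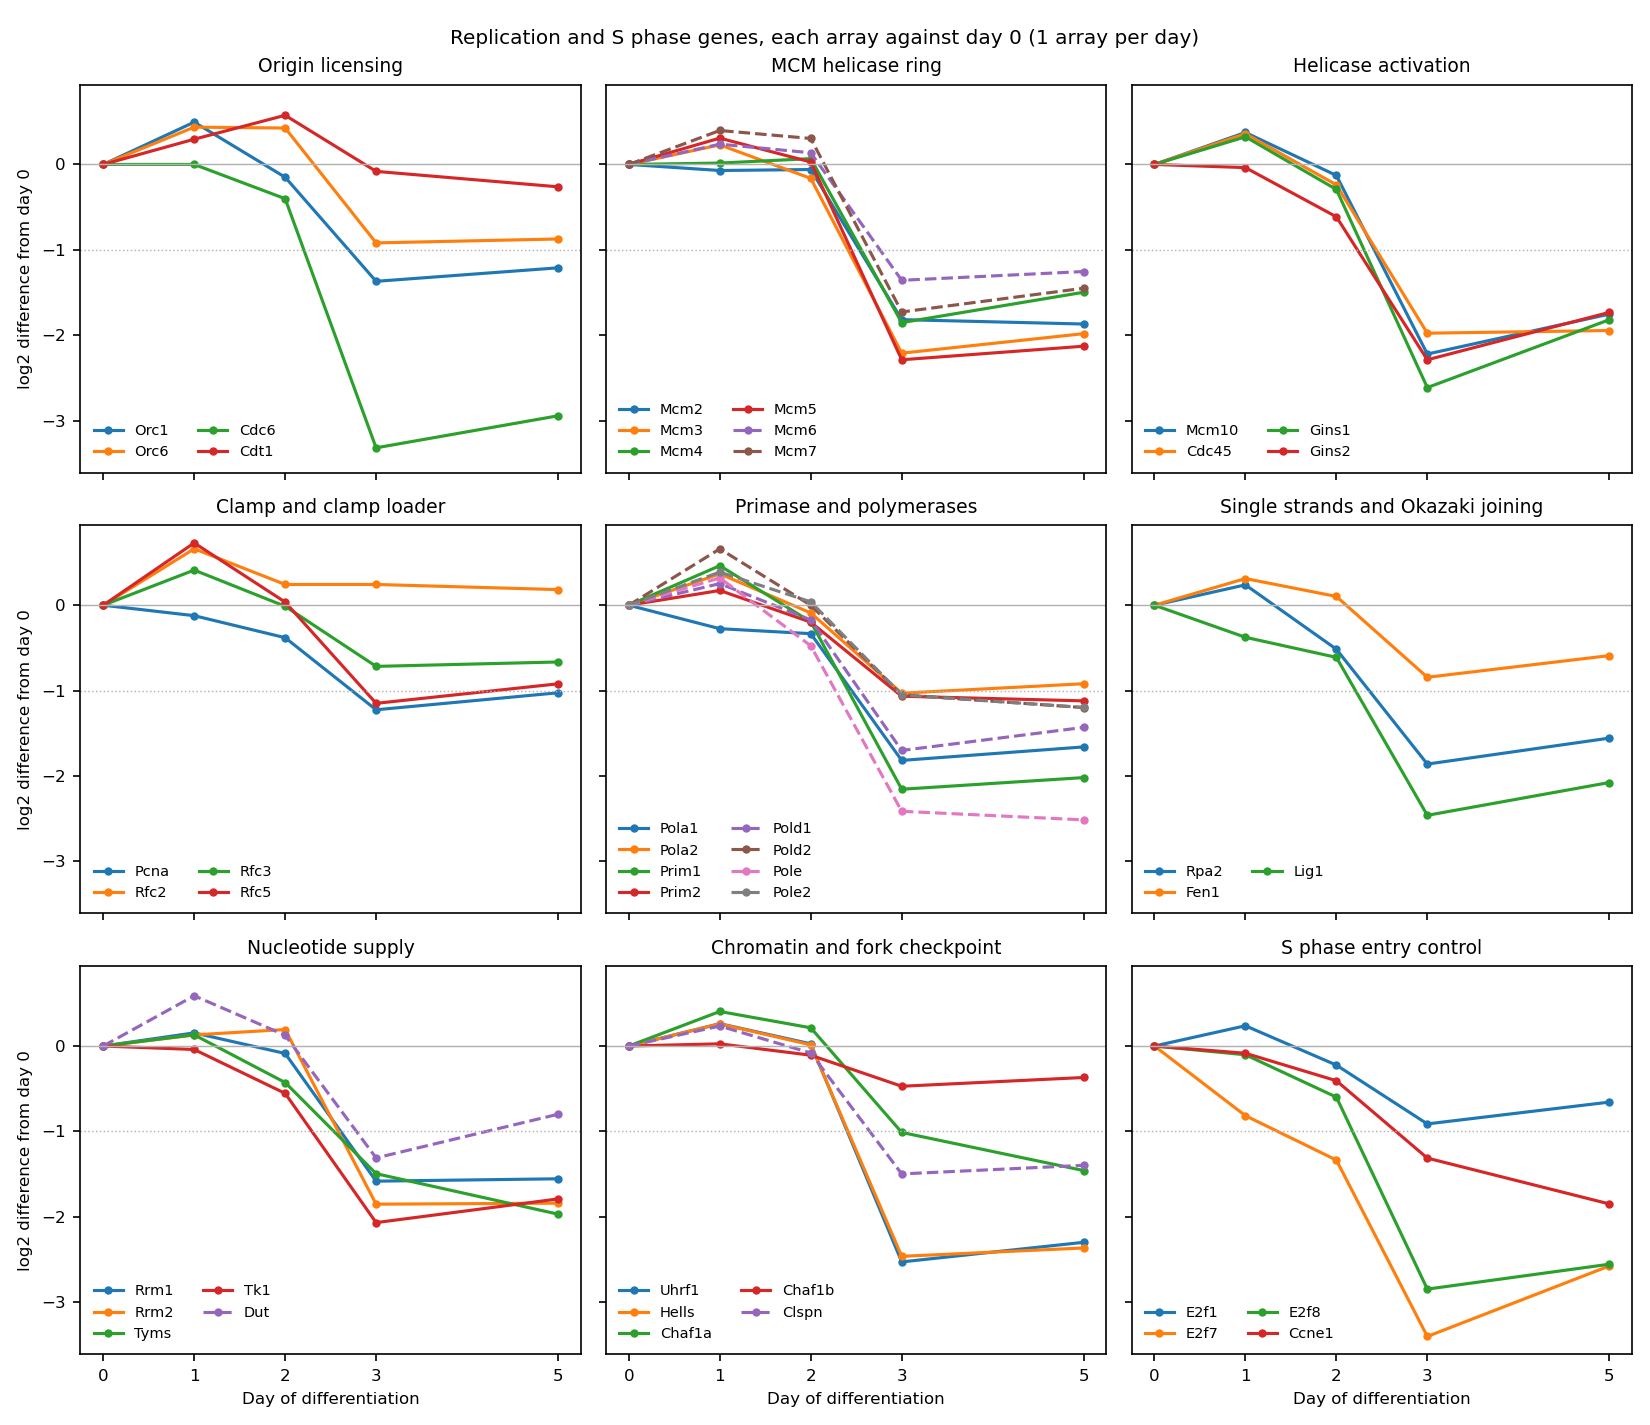
Log2 difference from day 0 (y axis) against day of differentiation (x axis) for the 43 genes in 9 groups by role, 1 array per day and no error bars for that reason. The dotted line marks 2-fold lower. Most lines stay near 0 to day 2 and lie between -1 and -3 from day 3 on, while those of Rfc2, Cdt1 and Chaf1b are among those that stay above -1.

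Origin licensing held both the steepest and one of the flattest genes. Cdc6, the ATPase that helps place MCM rings on origins, stood at 9.14 at day 0, 9.14 at day 1, 8.74 at day 2, 5.82 at day 3 and 6.20 at day 5 on the log2 scale. It was high on the first 3 arrays and low on the last pair, 7.56-fold lower at day 3 than at day 2 (difference -2.92). That was the largest fall in this step among all 12049 measured genes, so Cdc6 ranked 1. Cdt1, its partner in loading, read 8.53 at day 0, 8.82 at day 1, 9.10 at day 2, 8.45 at day 3 and 8.27 at day 5. Its value was highest at day 2, and the difference of day 5 from day 0 was only -0.26. Orc1, the large ATPase subunit of the origin recognition complex, was at a log2 difference of -1.22 from day 2 to day 3, and Orc6, its smallest subunit, at -1.35. At day 5 against day 0 Orc1 was at -1.21 and Orc6 at -0.87.

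All 6 subunits of the MCM2-7 helicase ring were at least 2-fold lower at day 3 than at day 2 and at day 5 than at day 0. Mcm5 showed 10.47 at day 0, 10.78 at day 1, 10.50 at day 2, 8.18 at day 3 and 8.34 at day 5, a difference of -2.32 in the step from day 2 to day 3. Mcm6, the subunit with the smallest difference at day 5, showed 10.89 at day 0, 11.13 at day 1, 11.03 at day 2, 9.54 at day 3 and 9.64 at day 5. The first 3 arrays lay above the last pair in every subunit, an arrangement that 22.8% of measured genes had. In the step from day 2 to day 3 the subunits ranged from -2.32 to -1.49: Mcm3 was at -2.05, Mcm7 at -2.03, Mcm4 at -1.92 and Mcm2 at -1.76. Before that step they moved little, with differences between -0.07 and 0.40 from day 0 to day 1 and between -0.39 and 0.05 from day 1 to day 2.

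The factors that turn the loaded ring into a helicase fell in the same step. Cdc45, the helicase cofactor, read 8.83 at day 0, 9.19 at day 1, 8.59 at day 2, 6.85 at day 3 and 6.88 at day 5. Gins2, a GINS subunit, read 9.65 at day 0, 9.62 at day 1, 9.04 at day 2, 7.37 at day 3 and 7.92 at day 5. In both the first 3 arrays were high, the last pair low, and the groups did not overlap, as in 22.8% of measured genes. All 4 genes of this group were at least 2-fold lower in the step from day 2 to day 3, with Gins1, another GINS subunit, at -2.32 and Mcm10, which helps start unwinding, at -2.09. Between days 3 and 5 the log2 difference was 0.79 for Gins1, 0.55 for Gins2 and 0.47 for Mcm10, all under 2-fold, and day 5 lay below day 2 in each.

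The sliding clamp and its loader had the smallest median difference of the 9 groups, with 1 of 4 measured genes at least 2-fold lower at day 5 and a median of -0.79. Pcna, the clamp that tethers polymerases to DNA, read 12.43 at day 0, 12.31 at day 1, 12.05 at day 2, 11.21 at day 3 and 11.41 at day 5. Its day 3 minus day 2 difference was -0.84, and the day 5 minus day 0 difference of -1.03 only just passed 2-fold. Rfc2, a subunit of the clamp loader, was the one gene without a late fall: its values were 8.67 at day 0, 9.33 at day 1, 8.91 at day 2, 8.91 at day 3 and 8.85 at day 5. Days 2 and 3 were equal, and day 5 lay 0.18 above day 0 as deposited. Day 5 was at -0.31 against day 0 with arrays centred on the level of reference genes. It stayed above day 0 when centred on their median change. The loader is a complex of several subunits, and 2 others, Rfc5 (-1.19) and Rfc3 (-0.70), were lower in that step while Rfc2 was not. Why Rfc2 lacked the late fall was not tested.

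Among primase and polymerase genes, 7 of 8 fell by at least 2-fold from day 0 to day 5 and 6 of 8 in the step from day 2 to day 3. Pole, the catalytic subunit of the leading-strand polymerase, had the largest difference of day 5 from day 0, with 9.43 at day 0, 9.75 at day 1, 8.95 at day 2, 7.01 at day 3 and 6.91 at day 5. Pola2, the regulatory subunit of polymerase alpha, had the smallest, with 9.99 at day 0, 10.36 at day 1, 9.90 at day 2, 8.96 at day 3 and 9.07 at day 5. Subunits of one enzyme are given side by side. In the step from day 2 to day 3 the catalytic primase subunit Prim1 was at -1.96 and its large subunit Prim2 at -0.87. Pold1, the catalytic subunit of the lagging-strand polymerase, was at -1.53 and its partner Pold2 at -1.05. Pole was at -1.94 and its partner Pole2 at -1.09, and Pola1, the catalytic subunit of polymerase alpha, at -1.48 beside -0.94 for Pola2. These pairs were picked after the values were seen, and their gaps have no replicate check. Pole has another, dim row that stayed between 4.87 and 4.95. With both rows averaged Pole was at -0.93 in that step, a smaller difference than that of Pole2, and at -1.26 in place of -2.51 at day 5 against day 0.

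Okazaki fragment joining and single-strand binding split. Lig1, the ligase that seals lagging-strand pieces, read 10.44 at day 0, 10.06 at day 1, 9.83 at day 2, 7.98 at day 3 and 8.36 at day 5. Fen1, the nuclease that trims their flaps, read 8.26 at day 0, 8.58 at day 1, 8.37 at day 2, 7.42 at day 3 and 7.67 at day 5. Both were lower on the last pair of arrays than on any earlier one, as 22.8% of measured genes were, Lig1 by more. Lig1 was 4.22-fold lower at day 5 than at day 0 and Fen1 1.51-fold. Rpa2, a subunit of the complex that coats single-stranded DNA, was at -1.35 in the step from day 2 to day 3 and at -1.56 at day 5 against day 0. Part of its fall came earlier, with -0.75 from day 1 to day 2.

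Nucleotide supply followed the main pattern, with 5 of 5 genes at least 2-fold lower from day 2 to day 3 and 4 of 5 at day 5 against day 0. Rrm2, the S phase subunit of ribonucleotide reductase, read 8.27 at day 0, 8.40 at day 1, 8.47 at day 2, 6.42 at day 3 and 6.43 at day 5. It was level over the first 3 arrays and again over the last pair. Its other row, dimmer, gave -1.29 for the step where the row used gave -2.05. Tyms, the thymidylate synthase, read 9.43 at day 0, 9.57 at day 1, 9.01 at day 2, 7.94 at day 3 and 7.47 at day 5, and so was lower again at day 5 than at day 3. Dut, the enzyme that clears dUTP, read 7.10 at day 0, 7.69 at day 1, 7.22 at day 2, 5.79 at day 3 and 6.30 at day 5. It was highest at day 1 and, alone in this group, under 2-fold at day 5 against day 0, at -0.80. Its other row, dim and below the level filter, was flat, and with both rows averaged its step of -1.44 became -0.72, under 2-fold. Rrm1, the large reductase subunit, and Tk1, the thymidine kinase of dividing cells, were at -1.50 and -1.51 in the step from day 2 to day 3.

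Chromatin and checkpoint genes held some of the largest falls. Hells, a helicase that maintains DNA methylation, read 8.98 at day 0, 9.24 at day 1, 8.997 at day 2, 6.52 at day 3 and 6.62 at day 5. Uhrf1, which brings the maintenance methyltransferase to new DNA, was at -2.55 in the step from day 2 to day 3, a 5.87-fold fall. Among all measured genes Uhrf1 and Hells ranked 7 and 9 by their fall in that step. The chromatin assembly factor split: Chaf1a, its large subunit, was at -1.23 there, and Chaf1b, its middle subunit, at -0.36, with values of 9.71 at day 0, 9.73 at day 1, 9.60 at day 2, 9.24 at day 3 and 9.34 at day 5. Clspn, the fork checkpoint adaptor, was at -1.42.

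Regulators of S phase entry differed in when they fell. E2f7, an atypical repressor, read 9.06 at day 0, 8.25 at day 1, 7.73 at day 2, 5.66 at day 3 and 6.49 at day 5. It was the only one of the 43 genes lower by more than 0.5 in the first day, at -0.82, was lower again at days 2 and 3, and then higher by 0.83 at day 5, the largest upward difference of the 43 genes from day 3 to day 5. E2f8, its close relative, read 9.78 at day 0, 9.68 at day 1, 9.18 at day 2, 6.94 at day 3 and 7.23 at day 5 and kept nearly its full level at day 1. E2f1, the classic activator, read 8.49 at day 0, 8.72 at day 1, 8.26 at day 2, 7.58 at day 3 and 7.83 at day 5, a difference of -0.66 at day 5 against day 0 that stayed under 2-fold. Ccne1, the cyclin that starts S phase with CDK2, read 8.59 at day 0, 8.51 at day 1, 8.19 at day 2, 7.28 at day 3 and 6.74 at day 5. Its decline went on after day 3, by -0.54, and at day 5 it was 3.60-fold below day 0.

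**Figure D4:**
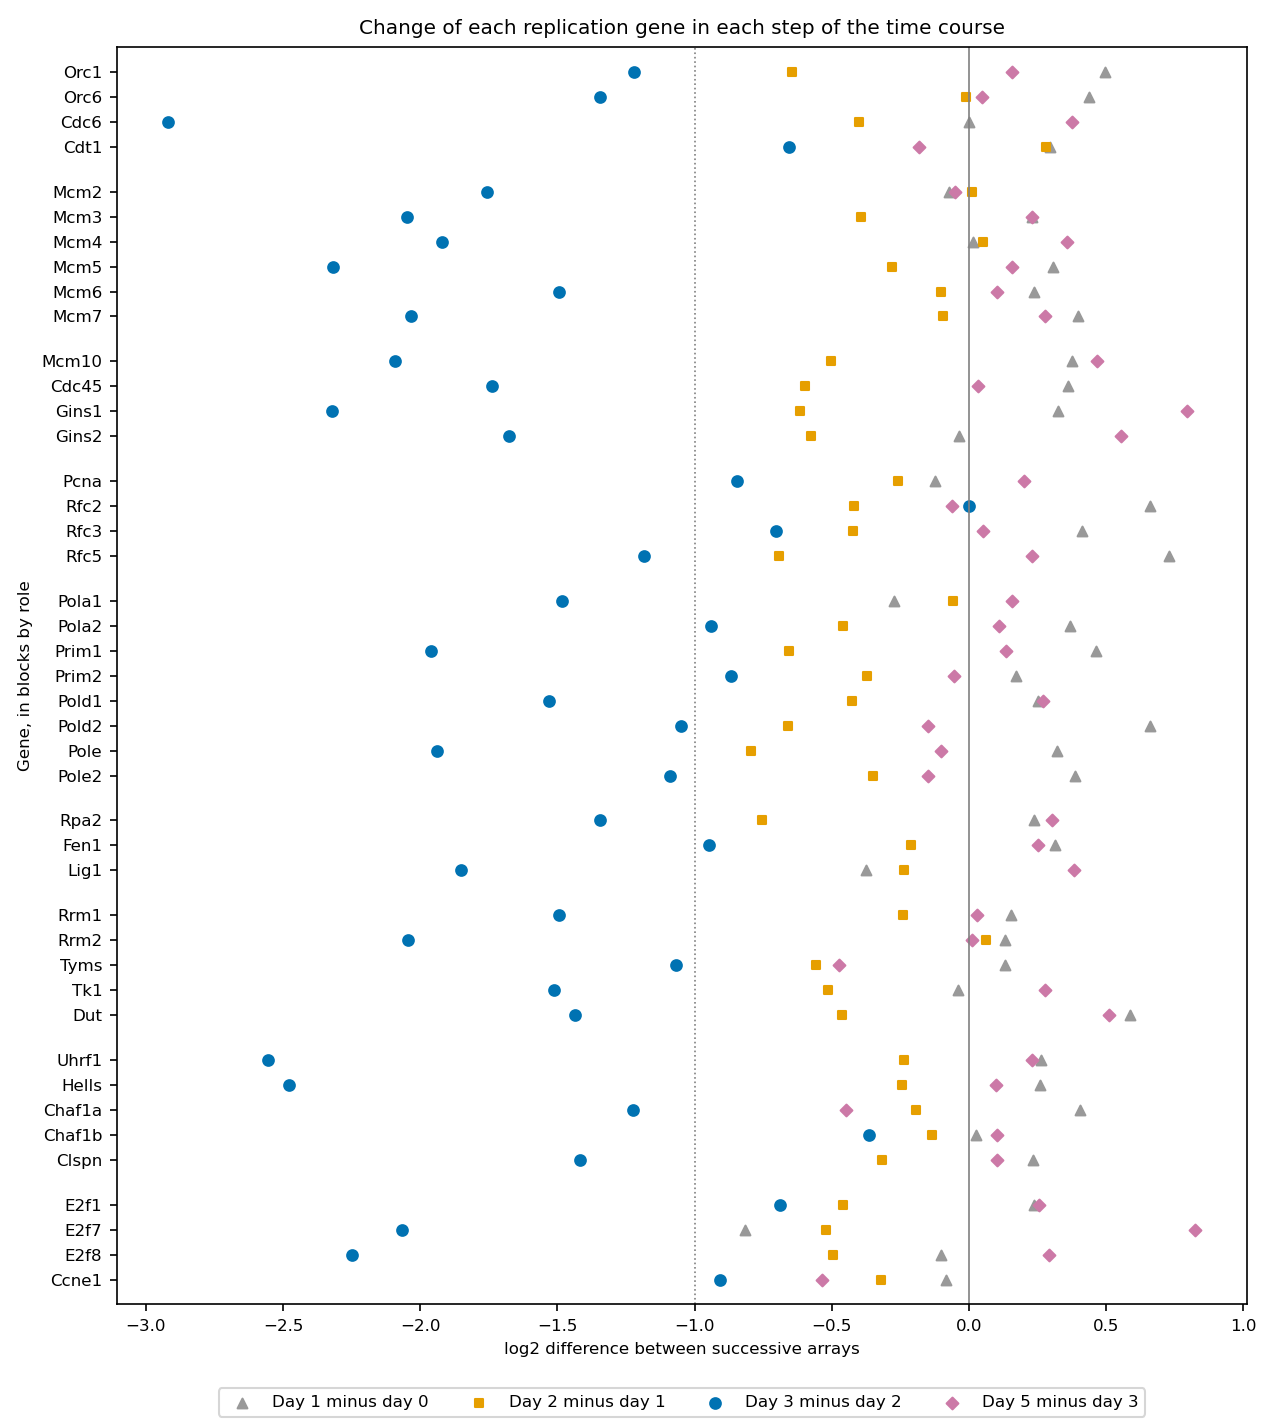
Log2 difference between successive arrays (x axis) for each of the 43 genes (y axis, in blocks by role), with 1 symbol for each of the 4 steps. The dotted line marks 2-fold lower. The symbols for day 3 minus day 2 stand apart to the left for most genes, from Cdc6 at -2.92 to Rfc2 at 0.00, and those of the other steps lie between -0.82 and 0.83.

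Day 1 brought a small shift the other way. Of the 43 genes 33 were higher at day 1 than at day 0, 9 lower and 1 equal, with a median of 0.25, and 49.1% of all measured genes were higher. Rfc5 (0.73), Rfc2 and Pold2 (both 0.66) and Dut (0.59) led, and 0 of the 43 reached 2-fold, where 2.91% of all genes did. The highest of the 5 values was that of day 1 in 30 of 43 genes, of day 0 in 10 and of day 2 in 3. Over all measured genes it was that of day 1 in 24.8%, of day 0 in 27.4% and of day 2 in 13.0%. From day 1 to day 2, 39 of 43 were lower and 4 higher (median -0.39), where 47.9% of measured genes were lower. From day 3 to day 5, 33 were higher and 10 lower (median 0.16), where 45.8% of measured genes were higher. With arrays centred on the level of reference genes, 27 of 43 rather than 33 were above 0 at day 1, and the median of 0.25 became 0.04. With the median change of those genes taken instead, 31 were above 0 and the median was 0.17.

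Further genes of replication, from lists that do not overlap the 43, were measured too. Of 109 such genes 101 were measured, and 45 of them (44.6%) were at least 2-fold lower at day 3 than at day 2, 0 higher and 56 neither (median -0.73). The difference between this share and the 76.7% of the main set was not tested. The day 5 minus day 0 differences above 0 given for these further genes were all below 0.49 and turn negative under the centring on the level of reference genes. Under the centring on the median change of those genes, a shift of 0.04, they stay above 0. For licensing and firing, 10 of 18 were lower. Ticrr, which helps recruit Cdc45, was at -2.15, and Wdhd1, a fork adaptor, at -1.88. Cdc7, the kinase that fires origins, was at -1.02, and its activator Dbf4 at -1.09. Gmnn, the inhibitor of Cdt1, was at -0.54. Orc2, another subunit of the origin complex, was at -0.56 in that step and at 0.09 at day 5 against day 0.

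In the fork machinery 6 of 19 were lower in the step from day 2 to day 3, led by the checkpoint kinase Chek1 (-1.94). Timeless, a fork protection factor, was at -1.06 there and at -1.73 at day 5 against day 0. Atr, the upstream checkpoint kinase, was at 0.37 at day 5 against day 0, and Pold4, a small polymerase subunit, at 0.35. Nucleotide enzymes had 6 of 12 lower. Ctps, a CTP synthase, was at -1.71, while Dck, a salvage kinase, was at -0.47 there and at -0.90 in the first day. Umps, of pyrimidine synthesis, was at 0.27 and Rrm2b, the reductase subunit used outside S phase, at 0.20 at day 5 against day 0. Samhd1, which degrades dNTPs, held 10.88 at day 0 and 10.86 at day 5.

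Genes of replicated chromatin had 7 of 12 lower in that step. Cdca7, the activating partner of Hells, was at -2.46 and Esco2, which acetylates cohesin, at -1.59, whereas Dnmt1, the maintenance methyltransferase itself, was at -0.70. Fork repair genes had 7 of 12 lower, with Rad51ap1 at -2.17 and the nuclease Exo1 at -2.04. In the E2F and RB family 4 of 16 were lower, among them Mybl2 (-2.54), a cell cycle transcription factor, and Rbl1 (-1.70), the p107 protein. The other pocket proteins were not: Rb1 was at 0.21 and Rbl2 at 0.21 in this step. These values turn slightly negative with arrays centred on the level of reference genes, but not when centred on their median change. E2f4, the main partner of p107 and p130, was at -0.66. Of kinases, inhibitors and ubiquitin ligases of S phase 5 of 12 were lower. Dtl, which targets Cdt1 for destruction, was at -2.40 and Fbxo5, which restrains the anaphase-promoting complex, at -1.98. Cdkn1b, the p27 inhibitor, was at 0.73, and Cdkn1a, the p21 inhibitor, at -0.14. Cdkn1c, the p57 inhibitor, was at 0.32 at day 5 against day 0.

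Mitosis genes were set beside the replication genes. Of 40 measured, 36 fell by at least 2-fold from day 2 to day 3 and 37 from day 0 to day 5, with medians of -1.58 and -1.72. Mki67, the proliferation marker, was at -1.66 from day 2 to day 3. Of 9 G1 cyclins and kinases 4 fell and 1 rose by 2-fold from day 0 to day 5 (median -0.78). Replication and mitosis genes and the further replication lists together, 184 genes, held 114 of the 471 genes at least 2-fold lower in the step from day 2 to day 3, which is 24.2% of those 471 and 62.0% of the 184. The 43 replication genes alone made up 7.01% of the 471. Of the 471 genes, 354 stood in none of the lists searched for motifs, and 271 of these had a promoter. These 271 held E2F letters in 29.2%, against 16.8% of measured genes. They also held CCAAT in 48.7%, against 38.7%, and CHR letters in 22.9%, against 1144 of 9534, so the excess was not of E2F letters alone. Of the 109 further replication genes, 85 had a promoter, and 39 of these (45.9%) held E2F letters. Genes at least 2-fold higher in that step held E2F letters in 3.70% of 189 promoters, CCAAT in 37.6% and CHR letters in 12.2%. Within the replication set, those with E2F letters had a median of -1.51 in the step (22 genes) and those without a median of -1.19 (15 genes), and the ranges overlapped, from -2.92 to -0.36 and from -2.09 to -0.69. For CCAAT letters the medians were -1.62 with a match (22 genes) and -1.09 without (15 genes), a gap in the same direction. Lig1, Tk1, Dut and Mcm10 were among 10 genes at least 2-fold lower with no E2F letters in the window used. Of these Lig1 has 3 listed starts, and only the first was used in this split. Cdt1, Rfc3 and Chaf1b had 2 E2F matches each and stayed under 2-fold.

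**Figure D5:**
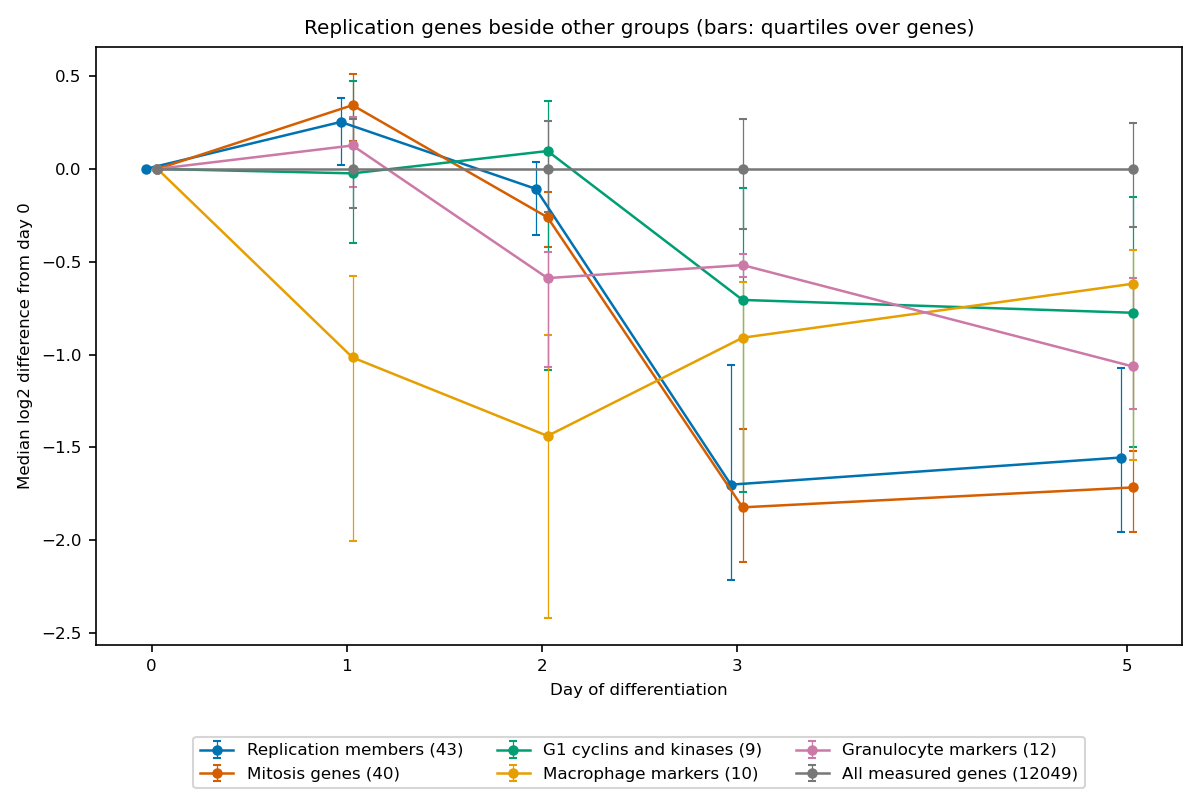
Median log2 difference from day 0 (y axis) against day (x axis) for the replication genes, mitosis genes, G1 cyclins and kinases, macrophage and granulocyte markers and all measured genes, with quartiles over genes as bars and the number of measured genes in the legend. Replication and mitosis genes stay near 0 to day 2 and reach -1.70 and -1.82 at day 3. Macrophage markers are lowest at day 2, at -1.44.

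Markers of cells other than macrophages and osteoclasts were set beside these results. Of 14 granulocyte markers 6 fell by at least 2-fold from day 0 to day 5, and their summed linear level went from 2435 at day 0 and 2550 at day 1 to 1206 at day 2, 1634 at day 3 and 1299 at day 5. In the step from day 2 to day 3, where the replication genes fell, 0 of the 14 were 2-fold lower and their median difference was 0.03. The defining marker Ly6g was below the level filter on all 5 arrays. Progenitor markers summed to between 322 and 381 over the 5 arrays, with 0 of 8 changed by 2-fold in that step, and Flt3 and Hoxa9 below the filter throughout. B cell markers were below the filter on all arrays in 6 of 7 genes, and Cd79a, Ms4a1 and Pax5 were among them. Erythroid markers were below it in 3 of 4, with Klf1, Gata1 and Epor among these. T and NK markers summed to between 678 and 871 and were below it in 5 of 7, including Cd3e, Cd3d and Ncr1. The other 2 were above it. Of these Cd5 went from 5.67 at day 0 to 8.38 at day 5, and Il7r lay between 8.06 and 9.44. Stromal markers summed to between 217 and 527 and endothelial markers to between 217 and 389, with 0 of either lower by 2-fold in that step. The stromal marker Dcn went from 5.20 at day 0 to 8.45 at day 1 and 7.13 at day 5. Of the endothelial markers Vwf rose from 5.82 at day 0 to 7.69 at day 5, and Cdh5 fell from 6.96 to 5.67. In the same step the osteoclast marker Calcr, the calcitonin receptor, was 3.51 higher, and 3 of 11 osteoclast markers were at least 2-fold higher. Of 10 macrophage markers 3 fell by 2-fold from day 0 to day 5 (median -0.62). The part of any of these cells in the replication result was not tested.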

How the data were processed

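Total RNA was extracted with Trizol and labelled from 5 ng with the Affymetrix WT Pico kit, per the labels' protocols. The authors deposited log2 values made with RMA in the oligo package under R 3.4.0, per the submitters' processing notes. RMA subtracts background, gives the probe values of all arrays the same distribution and combines probes by median polish, so a shift of all genes is not seen, exact ties occur and differences near background are understated. Array medians were 4.88 to 4.92. The sources used here do not give the summary level or probe annotation.

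Values were used as deposited, without further normalisation. The table held 41345 rows, of which 23521 named 1 gene, 1814 named several and 16010 were not listed in the annotation. All 43 member symbols matched RefSeq (GRCm38.p6) through Entrez identifiers. Comparisons are differences of single arrays, so no test was run, and counts at 2-fold stand beside those over all measured genes. Counting was tested on simulated data. Genes named with all 5 values were, in each role group, those with the largest and smallest fall at day 5 and a fixed set. In the further lists the 2 largest differences each way at day 5 and a fixed set were named, with no second member where only 1 or none lay above day 0. Remaining members are given by their step or day 5 difference, and catalytic and accessory subunits were paired after the values were seen. The members and lists were chosen with earlier results of these data known. Alternatives covered scaling, rows per gene, filters, fold size and days compared. Promoter sequences are RefSeq's and all 1843 overlapping pairs of promoters on opposite strands were reverse complements over their shared bases. Python 3.11.15, numpy 2.4.6, pandas 2.3.3 and matplotlib 3.10.9 were used.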

Additional observations from a re-analysis of the deposited data

How the results depend on the processing

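The falls at day 3 against day 2 and at day 5 against day 0 kept their direction, as medians over the genes, under every alternative run. The median ranged from -1.87 to -1.33 at day 3 against day 2 and from -2.05 to -1.50 at day 5 against day 0. The small median at day 1 against day 0, 0.25 as deposited, went as low as 0.04. At 4-fold in place of 2-fold, 9 genes were counted at day 5 against day 0 and 11 at day 3 against day 2. At 1.5-fold, 1 gene was counted at day 1 against day 0 and 8 at day 2 against day 1. Subtracting the median of 12 reference genes from each array gave a median of -2.05 at day 5 against day 0 and counted 1 gene at day 1 against day 0. The median change of those genes was 0.03 at day 5 against day 0. It was 0.11 at day 1 against day 0 and 0.06 at day 3 against day 2. That centring takes the median of their levels instead. It moved the median of all genes by -0.49 at day 5 against day 0. It also moved that median by -0.21 at day 1 against day 0 and by -0.22 at day 3 against day 2. It split the calls over all genes into 1957 lower and 416 higher against 791 and 817 as deposited at day 5, 758 and 218 against 503 and 351 at day 1, and 718 and 143 against 471 and 251 in the step to day 3. It shifts all genes alike, so differences relative to all genes do not change. Rfc2, at 0.18 as deposited, was at -0.31 there. Centring on the median change of the reference genes was an alternative chosen after seeing the data. It took each of these genes relative to its own mean over the 5 arrays. The median of those relative values in each array was then subtracted. Its shifts, not the same as the median changes above, were 0.04 at day 5 and 0.08 at day 1, both against day 0. For day 3 against day 2 the shift was -0.03. With this centring the median of the replication genes at day 1 against day 0 was 0.17. With the rows of a gene averaged, Pole was at -1.26 at day 5 against day 0, and 31 genes in place of 33 were lower at day 3 against day 2. For single genes 215 differences of day 5 from day 0 were recomputed. Of these 60 moved by more than 0.42, the SD for 1 row from the disagreement between rows. Among them were all 43 under the centring on the level of reference genes, and 0 that had passed 2-fold changed sign. No paired analysis was possible because each day has 1 array.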
